A study of Sus scrofa with 12 samples.

Results

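The data compare porcine hatched blastocysts (HB) made without sperm with hatched blastocysts that had developed in the mother. RNA was measured on 3 arrays of parthenote hatched blastocysts (PA HB) and 3 arrays of in vivo hatched blastocysts (IVV HB), chosen by their sample titles, which are 6 of the 12 arrays of the series. The other 6 arrays hold expanded blastocysts (XB) of the same origins, 3 PA XB and 3 IVV XB. These 6 serve here as the expanded stage. They also enter the fit behind the hatched comparison, the choice of representative probes and the shared profile, all described below. Each array holds a pool of 5 embryos labelled with Cy5, hybridised against a common reference pool of porcine oocytes and embryos labelled with Cy3. PA embryos came from oocytes activated with ionomycin and DMAP and grown in the medium PorcPRO mNCSU-23, and IVV embryos were recovered from inseminated gilts. All 3 IVV HB pools are labelled 5.5 dpi, in days after insemination, and the IVV XB pools 5, 5 and 6 dpi, so that IVV XB replicate 3 is older by its label than every IVV HB pool. The 3 PA HB pools are labelled 7 hpf and the PA XB pools 5, 6 and 6 hpf, which reads as hours after fertilization although parthenotes are not fertilized and the study's methods describe culture over days. No in vitro fertilized or cultured biparental group is among the 12 arrays, so the lack of a paternal genome, the culture, the age at collection and the source of the oocytes cannot be told apart.

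A parthenote develops from an oocyte that is activated without fertilization, and both of its chromosome sets are maternal. Such embryos can form a blastocyst and hatch from the zona pellucida, but genes that imprinting keeps silent on maternal chromosomes have no expressed copy, and parthenotes do not develop to term. The hatched blastocyst consists of an outer trophectoderm, which pumps fluid into the cavity and later forms placenta, and an inner cell mass, which gives the embryo proper and the primitive endoderm.

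Values are log2 ratios of a sample to the reference pool, so that 0 means a level equal to the pool, and a difference of 1 between groups is a 2-fold difference. A probe was called when its adjusted p was at most 0.05 and its difference at least 2-fold in limma's moderated test, with Benjamini-Hochberg adjustment over all 24908 probes, and a gene was called when at least 1 of its probes was. Of 7753 named genes, 448 were higher in PA HB, or 5.78% of those tested, and 393 were lower, or 5.07%, with 10 genes in both counts through different probes. Counted by probe, and with unnamed probes included, 4.87% or 1213 lay higher and 3.63% or 905 lay lower, together 8.5%. The 3 arrays of one group lay wholly on one side of the other group's on 30% of probes, and on the called probe in 409 of the 448 higher and 387 of the 393 lower genes. Most named genes lay close together in the 2 groups: the middle 50% of differences, from the first to the third quartile, ran from -0.33 to 0.32, with a median of 0.02. The genes that were higher had a median log2 ratio of 0.32 in IVV HB and 1.89 in PA HB. The genes that were lower had a median of 0.25 in IVV HB and -1.18 in PA HB, and 239 of these 393 genes were below -1 in PA HB against 12 in IVV HB. Quantile normalization between arrays turned the balance, with 174 genes higher and 265 lower. The counts rested most on IVV HB replicate 1, without which 123 genes were higher and 167 lower. The 3 pools of a group are taken as separate replicates, and p-values measure only the spread between pools. That spread is estimated jointly within all 4 groups, the expanded stage included, and limma moderates it over all probes. With only the 6 hatched arrays fitted, 437 genes were higher and 376 lower.

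**Figure D1:**
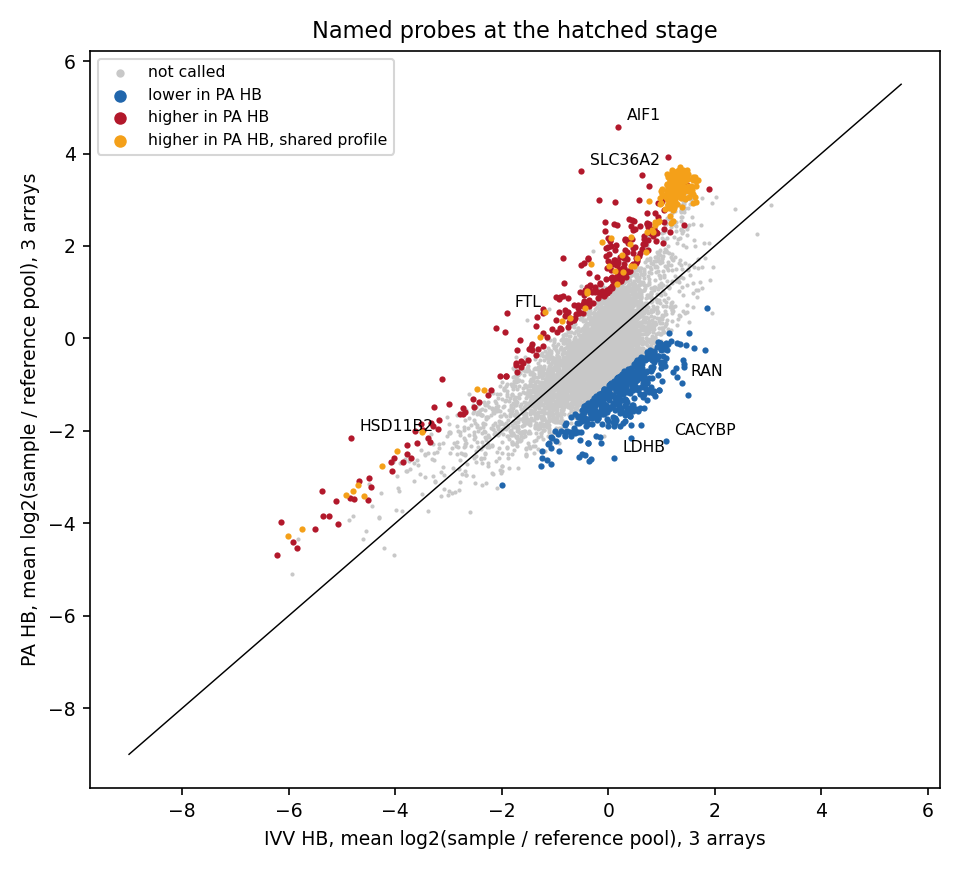
Mean log2 ratio to the reference pool over 3 IVV HB arrays (x axis) and 3 PA HB arrays (y axis), 1 point per named probe, with the line of equality. Called probes are coloured, and the probes of the shared profile are marked in a colour of their own, with most of them in 1 cluster at the upper right.

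The calls were unevenly spread over the range of levels. Grouped by the mean over the 6 hatched arrays, 395 genes lay above a log2 ratio of 1, and 227 of these were higher in PA HB while 1 was lower. In 182 of these 395 genes the value is that of a probe of the shared profile described next, against 2 to 13 genes in each other range. Among the 3505 genes between -1 and 0 the balance was the other way, with 44 higher and 250 lower. Between -2 and -1, 15 of 602 genes were higher and 57 lower, and 39.2% had a positive difference. At the low end, of 210 genes at -2 or less, 46 were higher and 2 lower, and 72.4% had a positive difference, with a median of 0.56. The arrays differed in spread, with a median absolute deviation of 0.39, 0.48 and 0.42 on IVV HB replicates 1, 2 and 3. On PA HB it was 0.64, 0.73 and 0.60, and nothing was normalized between arrays. With arrays scaled to equal spread, 473 genes were higher and 308 lower. How far the spread shaped the uneven calls was not tested.

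A large share of the higher calls followed a single pattern across the arrays. The probe of SLC26A11, a sulfate transporter, had log2 ratios of -0.02, 2.51 and 0.82 on IVV HB replicates 1, 2 and 3 and of 2.69, 4.08 and 3.94 on PA HB. The probes of RCCD1 (0.08, 2.57 and 0.96 against 2.76, 4.17 and 3.98) and ASAP3 (0.37, 2.27 and 0.94 against 2.89, 4.10 and 3.80) gave nearly the same values array by array. Over all 12 arrays, 638 probes correlated with the SLC26A11 probe at a Pearson r of at least 0.95, and 406 of them differed from it by less than 0.5 on average. Of these 638 probes, 526 were called higher in PA HB, which is 43.4% of the 1213 higher probes, and none was called lower. The lack of lower calls follows from the choice of the probes by their correlation with a probe that was higher in PA HB. Only 239 of them have a gene name, and they belong to 230 genes of unlike function, among them CXCR4, a chemokine receptor, KAT5 and KAT7, which acetylate histones, PARP1, a sensor of DNA breaks, and RAB6B, a GTPase of Golgi traffic. For comparison, the higher probe with the most followers at this r had 612 followers among the higher probes, and the lower probe with the most had 119 among the lower probes. This pattern was noticed after the values were seen and is given without a test.

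The shared profile set 1 in vivo array close to the parthenotes. The median of the 638 probes was 0.32, 2.23 and 1.02 on IVV HB replicates 1, 2 and 3, and 2.27, 3.38 and 3.49 on PA HB, so that IVV HB replicate 2 and PA HB replicate 1 were nearly equal. On the expanded stage it was 0.52, 0.27 and 0.77 in IVV XB and 1.67, 3.57 and 2.98 in PA XB. IVV HB replicate 2 also stood apart over all probes, with a mean correlation of 0.77 with the 6 PA arrays and 0.78 with the other IVV arrays, where IVV HB replicate 1 had 0.54 and 0.84. Of the 230 genes, 114 have further probes outside the profile, and these 217 probes had a median difference of 0.03 between PA HB and IVV HB, with 7 called higher and 5 lower. The cause of the profile was not tested. Counted without these probes, 266 genes were higher in PA HB (3.48% of 7637), so 182 of the 448 genes rested only on them, and 394 were lower (5.16%). The split depends on the r required: 259 higher genes rested only on the profile at an r of 0.9, 149 at 0.97 and 117 at 0.98. For the gene lists below, the number of higher genes that rest only on the profile, at an r of 0.95, is given where it is above 0.

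**Figure D2:**
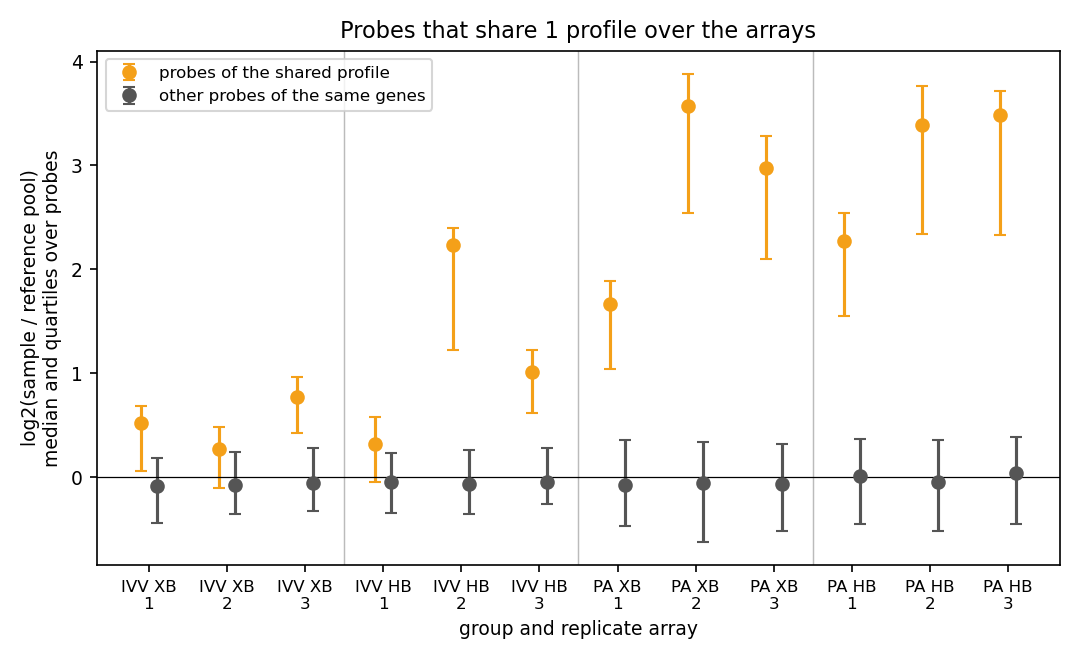
Median and quartiles of the log2 ratio over the 638 probes of the shared profile and over the 217 other probes of the same genes (y axis), on each of the 12 arrays (x axis). The shared profile runs from 0.32 to 2.23 in IVV HB and from 2.27 to 3.49 in PA HB, while the other probes have medians near 0 on every array.

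Outside the shared profile, AIF1 stood farthest apart. Its product bundles actin, binds calcium and is best known from macrophages. Its log2 ratios were 0.15, 0.45 and -0.03 in IVV HB and 4.25, 5.18 and 4.32 in PA HB. The leukocyte markers measured beside it did not follow: none of 6 (CD3E, CD4, CSF1R, LCP1, PTPRC and SPI1) was called, and their differences ran from -0.15 to 0.41. SLC36A2, a transporter of proline and glycine, was at -0.70, -0.44 and -0.37 in IVV HB and at 3.59, 3.77 and 3.49 in PA HB. Both genes were separated by more than 3 log2 units between the nearest arrays of the groups, and neither has a second probe.

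The other genes with large rises had varied roles. ECHDC1, which removes ethylmalonyl-CoA, rose from 0.03, 0.98 and 0.91 to 3.60, 3.30 and 3.69 (difference 2.89 ± 0.30, SE, adjusted p = 0.000329). FTL, the light chain of the iron store ferritin, lay below the reference pool in IVV HB, at -2.23, -1.89 and -1.61, and above it in PA HB, at 0.53, 0.53 and 0.58. PDX1, a homeobox factor of pancreas development, read -0.18, 0.41 and -0.38 against 2.45, 2.45 and 2.64 on its called probe, and its second probe differed by 0.14. These 3 genes had tight PA HB values and no overlap between the groups. TUSC2, a putative tumour suppressor, was higher by 2.82 ± 0.37 on one probe (adjusted p = 0.00118), while the other probe named for it differed by -0.72. RNASEH2C, a subunit of the ribonuclease that cuts RNA in RNA and DNA hybrids, was higher by 2.55 ± 0.35 (adjusted p = 0.00136), and CD70, a ligand of the tumour necrosis factor family, by 2.38 ± 0.32 (adjusted p = 0.00127). S100A11, a small calcium-binding protein, had scattered IVV HB values of -1.66, 0.89 and 0.26 and even PA HB values of 2.95, 3.23 and 2.78.

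HSD11B2, the enzyme that inactivates cortisol, showed a rise far below the level of the reference pool. Its log2 ratios were -5.58, -4.19 and -4.71 in IVV HB and -2.39, -2.38 and -1.66 in PA HB (difference 2.68 ± 0.34, adjusted p = 0.000943). CAST and THBS4, which lay below -2 on every IVV HB array, were also higher, whereas between -2 and -1 more genes were lower than higher, as given above. CAST, the inhibitor of the calcium-dependent protease calpain, went from -3.88, -3.06 and -2.40 to -1.16, -0.40 and -1.06. THBS4, a matrix glycoprotein, read -5.72, -5.03 and -4.97 in IVV HB and -4.47, -3.53 and -3.50 in PA HB. A ratio far below 0 says that the pool of stages held more of the transcript than either kind of blastocyst. The table holds no spot intensities, so the distance of such probes from background was not measured.

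**Figure D3:**
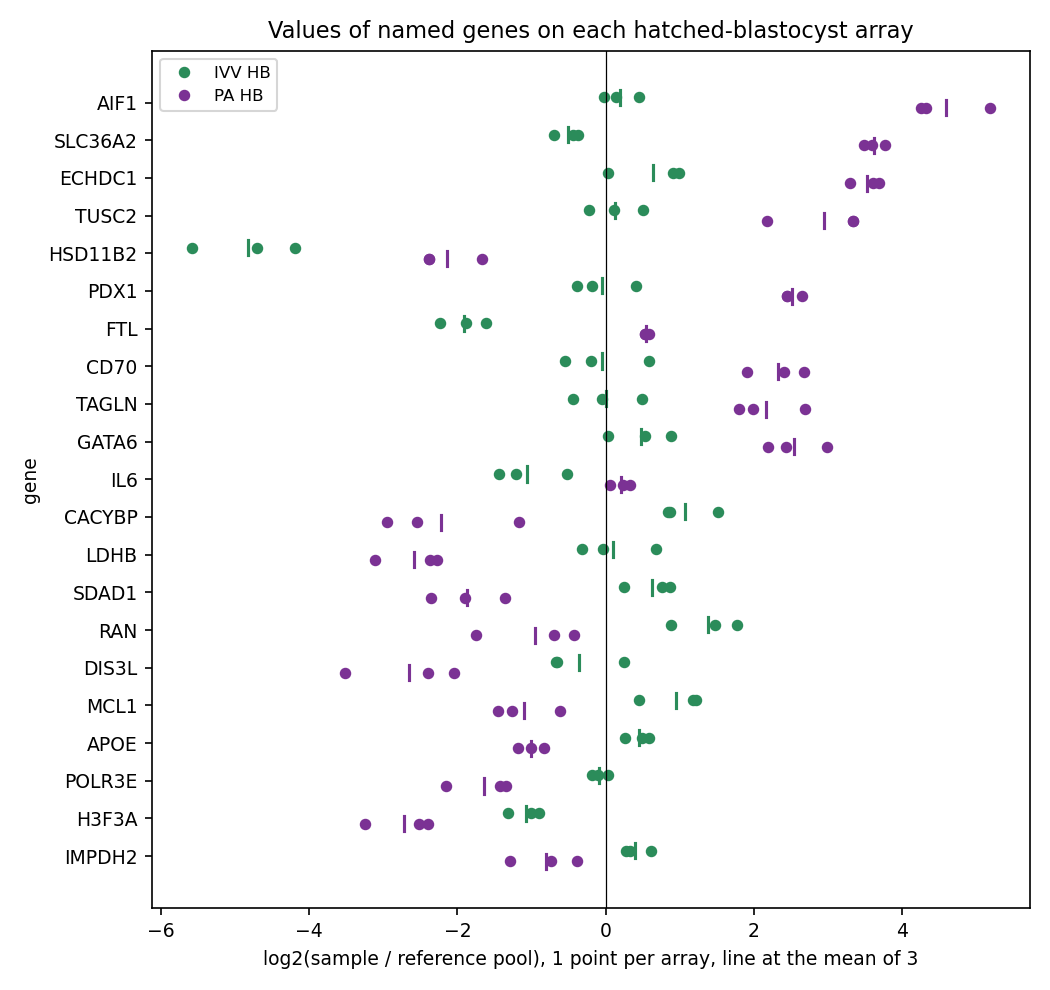
Log2 ratio to the reference pool (x axis) of 21 named genes (y axis), with 1 point for each of the 3 IVV HB and 3 PA HB arrays and a line at each group's mean. AIF1 lies between -0.03 and 0.45 in IVV HB and between 4.25 and 5.18 in PA HB, while HSD11B2 stays below 0 in both groups.

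The genes with the largest falls lay near or above the level of the pool in IVV HB. CACYBP, which binds calcyclin and a ubiquitin ligase complex, read 1.52, 0.87 and 0.84 in IVV HB and -2.95, -2.55 and -1.17 in PA HB. RAN, the GTPase that drives transport through nuclear pores, fell from 1.77, 0.88 and 1.48 to -0.70, -1.75 and -0.43, and both of its probes were called, at -2.34 and -1.41. LDHB, a subunit of lactate dehydrogenase, was at 0.68, -0.04 and -0.32 in IVV HB and at -2.28, -3.11 and -2.37 in PA HB. The second probe of LDHB was not called. No array of one group reached the other in the values given for CACYBP, RAN and LDHB. SDAD1 was lower on all 5 probes, by 0.37 to 2.49, of which 2 were called. DIS3L, a cytoplasmic exoribonuclease of the exosome, fell by 2.29 ± 0.33 (adjusted p = 0.00158). CALU, a calcium-binding protein of the endoplasmic reticulum, was lower by 2.29 on its called probe, while its 4 other probes lay between -0.13 and 0.34. LRPAP1, a chaperone of lipoprotein receptors, had IVV HB values of 2.21, -0.05 and 2.35, with replicate 2 nearest to the PA HB values of -1.30, -1.47 and -0.89.

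The support from further probes of the same gene differed in size between falls and rises. Of the 393 lower genes, 27 were called on at least 2 probes, and of the 448 higher genes 19 were, or 9 outside the shared profile. The next values cover only probes not themselves called in the gene's direction, so a gene whose every probe was called alike does not enter. Such probes of the lower genes had a median difference of -0.23. In 70.5% of 200 genes their mean had the same sign as the call. Such probes of the higher genes had a median of 0.03, and in 55.5% of 200 genes their mean had the same sign. Outside the shared profile the same sign was found in 71.4% of 199 lower and 60.2% of 108 higher genes. CSNK1A1, a casein kinase of the WNT pathway, was lower on 4 of 7 probes, by 1.57 to 1.93. CAPRIN1, an RNA-binding protein of cytoplasmic granules, was lower on both probes, by 1.90 and 1.68, and KIF5B, a kinesin heavy chain, was also called lower on both. Among higher genes, SSR4, a subunit of the signal sequence receptor of the endoplasmic reticulum, was called on all 3 probes, at 1.15, 1.45 and 1.53. By contrast, APOE, ARL1, FXYD4, GLUL, GPX3, HNRNPAB, HNRNPD, KRT8, KRT18, LDHB, RAB14 and SMARCE1 have 2 probes each, of which only 1 was called. In 10 genes 1 probe was higher and another lower: BZW1, COMMD3, CUTA, DCAF8, HNRNPA2B1, NSUN2, PA2G4, RCSD1, SIKE1 and TRIOBP. For CUTA, HNRNPA2B1, NSUN2 and RCSD1 a higher probe belonged to the shared profile.

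Among genes that make and process RNA, more were called lower than higher. For these and later lists, the shares over all named genes were 5.07% lower and 5.78% higher. A gene with more probes has more chances of a call. Of the 1875 genes with over 1 probe 402 were called, and of all other named genes 429 were. The shares of the lists were not adjusted for the number of probes per gene. Of 72 RNA polymerase subunits, Mediator subunits and general transcription factors, 10 were lower (13.9%) and 5 higher (6.94%). Of the higher genes 2 rested only on the shared profile, and the list median was -0.07. Without IVV HB replicate 1 the counts were 4 lower and 1 higher. RNA polymerase III, which transcribes transfer RNA and 5S ribosomal RNA genes, had 3 of 7 measured subunits lower and none higher. POLR3E went from -0.19, 0.03 and -0.10 to -1.43, -2.16 and -1.35, and POLR3D from -0.96, -1.24 and -1.01 to -2.31, -2.50 and -2.28, with no overlap in either. CCNH, a cyclin of the general factor TFIIH, fell by 1.56 ± 0.27 (adjusted p = 0.00403). SUPT3H, a subunit of a histone acetylase coactivator, was the clearest exception, at -0.83, -0.31 and -0.46 in IVV HB and 0.90, 1.04 and 1.08 in PA HB.

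Of 82 splicing factors and heterogeneous nuclear ribonucleoproteins (hnRNPs), 11 were lower (13.4%) and 6 higher (7.32%). Of the higher genes 2 rested only on the shared profile, and 1 gene counted in both directions. With single arrays left out, 8 to 16 were lower and 1 to 8 higher. The list's median was -0.26, beside 0.02 over all named genes. Of 11 measured hnRNPs, which bind and package nascent transcripts, 5 were lower and 2 higher, both of these only on the shared profile. HNRNPD read 0.49, 0.47 and 0.25 in IVV HB and -0.74, -0.77 and -0.99 in PA HB. HNRNPH1 was lower on 2 of its 6 probes, by 2.02 and 1.13, and HNRNPAB by 1.98 ± 0.34 (adjusted p = 0.00406). SRSF11, a serine- and arginine-rich factor, fell from 1.30, -0.07 and 0.55 to -1.49, -2.21 and -0.83. In RNA decay, polyadenylation and export, 7 of 89 genes were lower and 5 higher (1 only on the shared profile), or 7.87% and 5.62%. The poly(A) polymerase PAPOLA fell by 1.34 ± 0.23 (adjusted p = 0.00356).

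In nucleotide and one-carbon metabolism, 5 of 41 genes were lower (12.2%) and none higher, beside 5.07% and 5.78% of all named genes. They were IMPDH2, which commits purines to guanine nucleotides (0.61, 0.27 and 0.32 against -0.39, -1.28 and -0.74), ADSL of purine synthesis, ADK, which phosphorylates adenosine, NME2, a nucleoside diphosphate kinase, and GCSH of glycine cleavage. The list's median was -0.04. All 5 calls were lost without IVV HB replicate 1, and the count ran up to 6 with another array left out. ADSL was called on 2 of its 4 probes, at -1.23 and -1.13.

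The actin cytoskeleton changed in both directions, with 9 of 73 genes higher (1 only on the shared profile) and 8 lower (12.3% and 11% of the list). Without IVV HB replicate 1 the counts were 5 and 0, and with PA HB replicate 2 omitted they were 6 and 1. The higher genes included proteins of contractile filaments. TAGLN, transgelin of smooth muscle, went from -0.44, 0.49 and -0.04 to 1.99, 2.69 and 1.81. TPM4, a tropomyosin, went from 0.15, 0.25 and 0.64 to 1.99, 2.25 and 2.16, and CAPG, which caps actin filaments, rose by 1.81 ± 0.26 (adjusted p = 0.00151). The myosin light chains MYL6, MYL6B and MYL7 were higher by 1.36, 1.16 and 1.55. The tropomyosins TPM1 and TPM3 were lower, by 1.37 and 1.24, as were CFL1 (cofilin) and GSN (gelsolin), which sever filaments, by 1.27 and 1.12, each on 1 called probe. ACTB had probes that pointed apart, at 0.83 (not called) and -1.11, and members of such families share sequence, so their probes may read each other. Of 60 microtubule and motor genes, 4 were higher (1 only on the shared profile) and 4 lower, and the tubulins TUBA1A and TUBA1B, which are near copies, gave nearly the same values on their called probes.

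Among 43 GTPases of the RAB and ARF families, 7 were lower (16.3%) and 4 higher (9.3%), 3 of the latter only on the shared profile. Without IVV HB replicate 1 the counts were 2 and 0. RAB14, a GTPase of endosome recycling, went from 0.50, 0.39 and 0.35 to -1.05, -2.31 and -1.17. RAB10 was lower on 2 of 6 probes, by 1.13 and 1.32, and ARL1 of the Golgi by 1.17 ± 0.25 (adjusted p = 0.011). Of 129 coat, tether and SNARE genes of vesicle traffic, 10 were higher (7.75%), 6 of them only on the shared profile, and 9 were lower (6.98%). With IVV HB replicate 1 omitted, 2 were called in each direction. TRAPPC5, a tether of the Golgi, read -0.73, -0.72 and 0.08 in IVV HB and 1.48, 1.36 and 2.03 in PA HB. GOLGA4, a golgin, fell by 1.97 ± 0.39 (adjusted p = 0.00782). Of 21 autophagy genes, 2 were higher (9.52%) and none lower: ULK1, the kinase that starts autophagy (-1.35, -1.06 and -1.27 against -0.22, 0.08 and 0.48), and ATG2A.

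**Figure D4:**
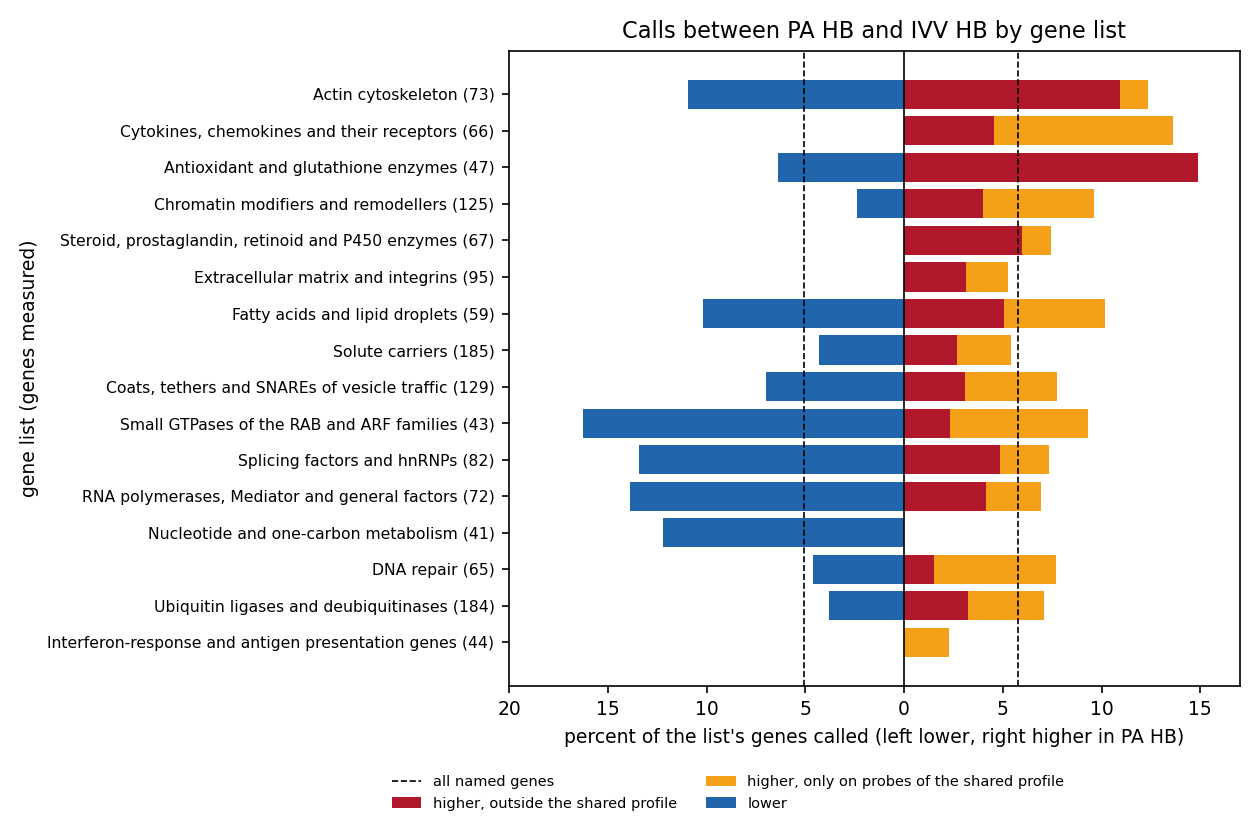
Percent of each list's measured genes (in parentheses) called lower (left) and higher (right) in PA HB, with higher genes split by whether a call lies outside the shared profile. Dashed lines mark all named genes, at 5.07% lower and 5.78% higher, and most higher calls of the cytokine, chromatin and DNA repair lists lie on the shared profile.

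Of 47 antioxidant and glutathione enzymes, 7 were higher (14.9%), none of them on the shared profile alone, and 3 were lower (6.38%). Without IVV HB replicate 1 the counts were 2 and 0. Beside FTL, GPX3, the secreted glutathione peroxidase, went from -3.84, -2.56 and -3.41 to -1.56, -1.91 and -0.95. GSS and GSR, which make and reduce glutathione, were higher by 1.08 and 1.24, and GSTA1 by 1.49 from a level far below the pool. PRDX1, a cytosolic peroxiredoxin, fell from 0.20, 0.08 and -0.94 to -1.49, -2.16 and -1.62, and GCLM, the regulatory subunit of glutathione synthesis, by 1.13 ± 0.31 (adjusted p = 0.0313). The list's median was 0.11.

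Lipid genes split. Of 59 genes of fatty acids and lipid droplets, 6 were higher (3 only on the shared profile) and 6 lower, or 10.2% each. With IVV HB replicate 1 omitted, 1 was called in each direction. PNPLA2, the lipase that starts the breakdown of stored triglyceride, rose from -0.78, -0.49 and -0.24 to 1.51, 1.06 and 2.18. ACSL6, an acyl-CoA synthetase, was lower on 2 of 6 probes, by 1.87 and 1.41, and its 3 next probes were lower by 0.57 to 0.90 without a call. Among enzymes of mitochondrial fatty acid oxidation, ACADM was lower by 1.55, ACADSB by 1.74, ACAA2 by 1.20 and HADHB by 1.24, while HADHA was higher by 1.10, and all 5 calls were lost without IVV HB replicate 1. Of 67 steroid, prostaglandin, retinoid and P450 enzymes, 5 were higher (7.46%, ADH4 only on the shared profile) and none lower. With IVV HB replicate 1 omitted, 2 were higher. Beside HSD11B2, PLA2G16, a phospholipase, went from -2.62, -1.90 and -1.82 to -0.27, 0.88 and 0.04. APOE, the apolipoprotein that carries cholesterol, had even values in both groups, at 0.27, 0.49 and 0.58 in IVV HB and -0.83, -1.18 and -1.01 in PA HB.

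Of 185 solute carriers, 10 were higher (5 only on the shared profile) and 8 lower (5.41% and 4.32%), or 5 and 3 with IVV HB replicate 1 omitted. SLC5A9, a sodium-driven sugar transporter, rose from -0.22, 0.48 and 0.07 to 2.18, 2.63 and 2.60. SLC6A8, the creatine transporter, was lower on 2 of 6 probes, by 1.51 and 1.35, and SLC2A1, a glucose transporter, fell by 1.03 ± 0.29 (adjusted p = 0.0333). SLC3A1, a subunit of the cystine transporter, was lower by 2.17 ± 0.53 (adjusted p = 0.0197), and its second probe differed by -0.06. GLUL, glutamine synthetase, went from 0.87, 2.02 and 1.39 to 3.25, 3.00 and 4.25.

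The list of 66 cytokines, chemokines and receptors had 9 higher genes (13.6%) and none lower, but 6 of the 9, namely AMCF-II, CCL5, CCR1, CXCR4, IL12A and TNFRSF9, were called only on the shared profile. The 3 others were MIF, a macrophage cytokine (-0.49, 0.69 and 1.08 against 2.37, 2.55 and 2.35), IL17REL and IL6. In the same way, 12 of 125 chromatin genes were higher (9.6%) and 3 lower (2.4%), and 7 of the 12 rested only on the shared profile. SMARCE1, a subunit of a remodelling complex, rose by 1.32 ± 0.27 (adjusted p = 0.00919), and MBD3, a subunit of the NuRD repressor complex, fell from 0.62, 0.99 and 1.33 to -0.27, -0.87 and -0.47. In DNA repair 5 of 65 genes were higher (7.69%), 4 of them only on the shared profile, and 3 were lower (4.62%). Of the ubiquitin ligases and deubiquitinases, 13 of 184 were higher (7.07%), 7 of them only on the shared profile, and 7 were lower (3.8%). With IVV HB replicate 1 omitted, the higher genes numbered 3 in the cytokine list, 0 in the chromatin list, 1 in DNA repair and 2 in the ubiquitin list. The replication-independent histone genes H3F3A and H2AFZ were lower by 1.64 and 1.67 on 1 called probe each.

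Of 87 genes of FGF, TGF-beta, WNT and IGF signalling, 4 were higher (4.6%) and 3 lower (3.45%), beside 5.78% and 5.07% of all named genes. GRB2, the adaptor between receptor tyrosine kinases and RAS, went from 1.12, 0.60 and 1.30 to -0.61, -0.76 and -1.39. MCL1, a protein of the BCL2 family that blocks apoptosis, went from 1.18, 0.46 and 1.21 to -1.46, -0.61 and -1.26 on its called probe, and its other 2 probes differed by 0.59 and -0.58. Of the 42 apoptosis genes, 3 were higher (7.14%, 1 only on the shared profile) and MCL1 was the 1 lower gene (2.38%). The receptor FGFR1 read -0.15, 0.21 and -0.06 in IVV HB and 1.04, 1.18 and 0.94 in PA HB, and LRP6, a WNT co-receptor, was higher by 1.03, both just past the 2-fold limit.

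Markers of the blastocyst's cell types did not move together. In a pool of whole embryos, fewer cells of a type and less RNA per cell cannot be told apart. Of 7 inner cell mass markers only DPPA5 was higher, from -4.50, -4.12 and -4.93 to -3.87, -3.53 and -3.07, and POU5F1, the pluripotency factor OCT4, differed by -0.85 and 0.01 on its 2 probes without a call. DPPA5 lay in the range at -2 or less, where 46 of 210 named genes were higher and 2 lower. Of 5 primitive endoderm markers, GATA6, its defining transcription factor, was higher (0.03, 0.89 and 0.53 against 2.19, 2.43 and 2.99), while PDGFRA, FOXA2, COL4A1 and LAMB1 were not called. Of 10 trophectoderm markers, 2 were higher, KRT8 and, only on the shared profile, CGN, and KRT18 was lower, while the trophectoderm factor CDX2 differed by -0.04 and 0.09. KRT8 was higher by 1.23 on 1 of its 2 probes. In the study's own quantitative PCR both KRT8 and KRT18 were lower in PA HB, so the direction of KRT8 is not settled here. Of 13 ion pump and aquaporin genes of the kind that fill the blastocoel, 1 was higher and 2 lower: FXYD4, a regulator of the sodium pump, by 1.45, and the water channels AQP3 and AQP11 by 1.43 and 1.66. Markers of cells that could be carried along gave no call: 0 of 8 cumulus and granulosa genes, with array means of -0.63 to -0.23 in IVV HB and -0.25 to 0.19 in PA HB, and 0 of 2 endometrial genes. With 5.78% of all named genes higher, lists this small can lack a call, so they cannot show whether such cells were present. Of the 8 cumulus and granulosa genes, 6 had a positive difference, with a median of 0.34 beside 0.02 over all named genes. At the expanded stage 1 of them was called higher.

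Imprinted genes were looked at because parthenotes carry no paternal alleles. None of the 9 measured genes that are expressed from the paternal allele in mouse or human was called, and their differences ran from -0.41 to 0.38. MEST, a member of this group, read -1.10, -1.76 and -0.92 in IVV HB and -3.01, -1.11 and -0.89 in PA HB, with 1 PA HB array well below the others. NNAT differed by 0.02 and SGCE by 0.09, each with an SE of 0.23. Of 9 genes expressed from the maternal allele in mouse or human, TFPI2, a protease inhibitor, was higher, from -4.18, -3.07 and -3.32 to -2.45, -1.80 and -1.33, and the call was lost when IVV HB replicate 1 or PA HB replicates 2 or 3 were left out. The other 8 maternal genes ran from -0.50 to 1.09. TFPI2 lay in the range at -2 or less, where 72.4% of 210 named genes had a positive difference. The 2 probes named for EIF1AY, a Y-linked gene in human, differed by 0.26 and -0.11. None of the 27 microRNA precursors with a named probe was called. The highest difference was 0.62, for MIRLET7I, which passed the adjusted p but not the 2-fold limit. The study itself reports the precursors MIR1343, MIR149, MIR505 and MIR192 as more than 2-fold higher in PA HB. The reason for this disagreement was not tested.

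Of the 111 genes named above with calls in 1 direction, 61 kept the call in each of the 6 fits that left out 1 hatched array, and 50 lost it at least once, 48 of them when IVV HB replicate 1 was omitted and 40 when PA HB replicate 2 was. Among these 50, the genes outside the shared profile whose call fell in 3 or more fits were ACAA2, ACADM, ACTB, CFL1, DPPA5, FXYD4, GCLM, GCSH, GSR, GSTA1, HADHA, HADHB, IL17REL, MYL6B, NME2, RAB10, SLC2A1, SLC3A1, TFPI2 and TPM3. Each fold of these genes kept its direction.

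The differences at the hatched stage resembled those at the expanded stage. On the arrays of expanded blastocysts, which share no array with the hatched ones, 681 genes were higher in PA, or 8.78%, and 575 lower, or 7.42%, which made 1236 genes or 15.9% together. Without the shared-profile probes, 476 were higher and 583 lower. Over 7753 named genes, the 2 differences had a Pearson r of 0.83 and a Spearman rho of 0.77, across genes that are not independent and share the reference pool. Of the 831 genes called at the hatched stage, 615 were called in the same direction at the expanded stage, which is 74% of the hatched list and 49.8% of the expanded list. Calls in opposite directions at the stages occurred in 24 genes, some of them also among the 615 and all but IL6 on different probes, and 209 were called at the hatched stage alone. AIF1 differed by 3.46 at the expanded stage, TUSC2 by 3.54, LDHB by -2.62 and DIS3L by -3.15. The shared profile was higher in PA at both stages and so adds to this likeness, but this follows from how its probes were chosen. They were picked by correlation, over the arrays of both stages together, with the SLC26A11 probe. That probe was itself higher in PA by 2.47 at the hatched and 2.64 at the expanded stage. The profile's agreement between the stages is therefore not separate evidence of likeness.

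IL6, which encodes the cytokine interleukin 6, was the single gene whose difference changed between the stages, or 0.0129% of genes tested. The PA minus IVV difference was -1.40 at the expanded stage and 1.26 at the hatched stage, where it lay at -0.53, -1.21 and -1.43 in IVV HB and 0.33, 0.23 and 0.06 in PA HB. The difference of differences was 2.66 (adjusted p = 0.0254). Its size ran from 2.47 to 2.93 with each of the 12 arrays left out in turn, but it missed the threshold in 10 of these 12 fits and passed it when IVV HB replicate 1 or IVV XB replicate 3 was omitted. Without IVV XB replicate 3, the pool labelled 6 dpi, 35 genes passed. Several genes were called at the hatched stage with little difference at the expanded stage, without the change between stages passing the test. APOE differed by -1.45 and 0.03 (adjusted p of the change = 0.254), MBD3 by -1.52 and 0.00 (0.833), and PRDX1 by -1.54 and 0.36 (0.62).

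**Figure D5:**
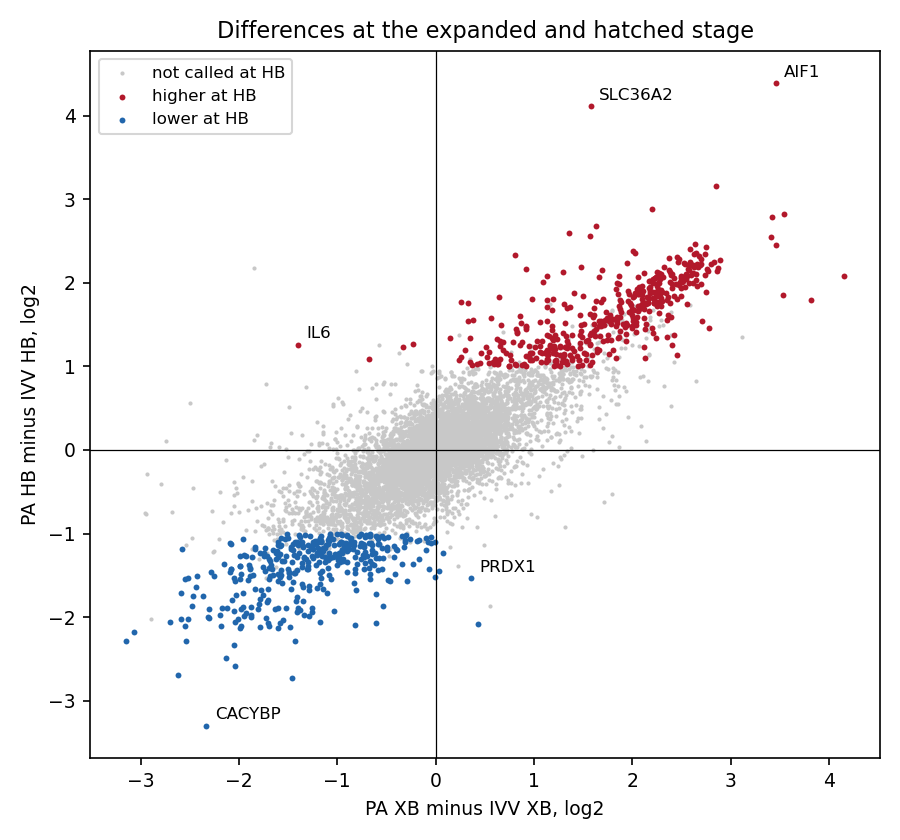
PA minus IVV difference in log2 ratio at the expanded stage (x axis) and at the hatched stage (y axis), 1 point per named gene on its representative probe. Points called at the hatched stage lie mainly in the upper right and lower left, with IL6 at -1.40 and 1.26 in the upper left.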

How the data were processed

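RNA of 12 embryo pools was measured on a 2-colour porcine oligonucleotide array. According to their methods, the authors subtracted background and applied loess within each array in FlexArray, and deposited log2 ratios of sample to reference. All 24908 probes entered the fit with their deposited values, and nothing was normalized between arrays. The direction and base of the ratios were checked against the labels, the study's methods and its own gene list. Gene symbols came from the platform table (10735 probes with 1 symbol, 14173 with none), and 68 names were updated by accession and 125 by synonym through RefSeq.

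Differences were tested with limma 3.58.1 in R 4.3.3, on all 12 arrays with 1 mean per group, 8 residual and 5.64 prior degrees of freedom. The script was tested on simulated data. With 3 arrays per group, their number limits the precision. The replicate numbers of PA HB and IVV HB were not used to pair the arrays in the main fit. Deviations of same-numbered arrays correlated at 0.23, 0.13 and 0.02. Differently numbered arrays were not compared, so these values cannot decide whether the numbers pair the arrays.

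Members, gene lists and tests were chosen with earlier results of these data known. Named genes were the 15 largest rises and falls whose arrays do not overlap, up to 4 called genes per list, genes called alike or oppositely at both stages, genes whose probes disagree or all agree, and microRNA, Y-linked and imprinted genes. Genes with several called probes, RNA polymerase III and hnRNP members and examples of the shared profile were chosen after their values were seen. A gene's value is that of its called probe of lowest p, or else of its representative probe, which has the lowest p for any difference among the 4 groups. CTSV, FYN, PDE6C and TBRG4 carry updated names and are not described. Not every gene that the rule names is described, and some are not reported here. Alternatives covered scaling, normalization, the arrays fitted, a replicate block, averaging of probes, a variability filter, leaving out each array, and, added after seeing the data, leaving out the shared-profile probes. No genome was used, and no sequences are shown.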

Additional observations from a re-analysis of the deposited data

Results flagged for a closer look

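IL6 differed between the stages: the PA minus IVV difference at the hatched stage exceeded that at the expanded stage by 2.66 on the log2 scale, as tested by the interaction term in limma (adjusted p = 0.0254). The adjusted p ranged from 0.00536 without IVV HB replicate 1 to 0.143 without IVV XB replicate 2, and the difference kept its sign in all 12 fits that left out 1 array. Groups of 3 arrays were too small for a test of outlying arrays.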

How the results depend on the processing

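With an array left out, the count of genes called between PA HB and IVV HB ran from 289 (without IVV HB replicate 1) to 1050 (without PA HB replicate 1), with 123 to 591 higher and 167 to 470 lower, and that of probes from 649 to 2658. Quantile normalization gave 439 genes, 174 higher and 265 lower, and 1032 probes. Averaging the probes of a gene gave 504 genes, 272 higher and 232 lower, and no count of probes. Without the shared-profile probes, 266 genes were higher. At the expanded stage, 361 genes were lower with averaged probes, and 372 to 688 with an array left out. The difference between the stages gave 0 to 35 genes, 0 to 30 higher and 0 to 5 lower. For IL6 it was 2.47 to 2.93 with an array left out, and past the threshold under the other alternatives run. The cause of these shifts was not tested, except that averaging leaves 1 value per gene. The other counts over all genes stayed within 1.5 times. Of 111 named genes none changed direction, and the call was lost in 42 with quantile normalization, 37 with arrays scaled to equal spread and 28 with averaged probes. A replicate block gave 940 genes between PA HB and IVV HB and changed no call of a named gene. Ratios without intensities do not show which probes lay above background.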
